A study of Rattus norvegicus with 7 samples.

Results

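The 10 genes described here are Hspa5, Hsp90b1, Pdia3, Pdia4, Pdia6, Calr, Calu, Xbp1, Atf4 and Ddit3. The first 7 code for chaperones, folding enzymes and calcium-binding proteins of the endoplasmic reticulum. The last 3 code for transcription factors of the stress response of this compartment. All 10 were chosen by name, with earlier results of these data known. Every probe set with 1 of these names as its only gene symbol was taken. This gave 11 of the 31042 non-control probe sets and 10 of the 14217 genes with a probe set of their own. Pdia3 had 2 probe sets and each other gene had 1. All 11 had a mean above the filter on low values (3.64 on the log2 scale), so no gene was lost, and no probe set was shared with another gene symbol.

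The arrays measured total RNA of perfused right lungs from Dahl salt-sensitive rats, an inbred strain prone to hypertension, weighing 250 to 350 grams. HSU_Sor rats (4 arrays) were kept in hypoxia, with about 9.5% inspired oxygen, and received both SU5416, an inhibitor of VEGF receptors, and sorafenib, an inhibitor of RAF kinases and of several receptor tyrosine kinases. HSU rats (3 arrays) had the same hypoxia and SU5416 without sorafenib. Lungs were taken at 3.5 weeks in both groups, and both therefore share the hypoxia and the VEGF receptor block. The other groups of the study (normoxia, and hypoxia with vehicle) were not analysed here.

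Secreted and membrane proteins fold in the endoplasmic reticulum with the help of chaperones, disulfide isomerases and calcium-dependent lectins. When unfolded proteins build up there, the sensors IRE1, ATF6 and PERK start the unfolded protein response. IRE1 splices the Xbp1 transcript, PERK favours translation of Atf4, and ATF4 induces Ddit3, while XBP1 and ATF6 induce the chaperones. Total transcript levels on an array do not report the splicing of Xbp1 or the translation of Atf4. In lung, cells with a large secretory load include alveolar type II cells, airway secretory cells, plasma cells and the fibroblasts and smooth muscle cells that make matrix.

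Array medians lay between 3.59 and 3.68 on the log2 scale, and arrays correlated with each other at 0.9843 to 0.9916. The lung surfactant gene Sftpc was between 15.39 and 15.54 and the club cell gene Scgb1a1 between 15.82 and 15.98, whereas the pancreatic gene Ins2 stayed between 1.59 and 1.63. Some arrays stood apart. HSU 1b and HSU 2b had signal at 1 of the probe sets of the MHC gene RT1-Bb (12.57 on both) where the other 5 arrays were between 3.55 and 3.72. HSU_Sor 3 and HSU_Sor 4 had less hemoglobin beta (Hbb, 12.11 and 11.59) than the other 5 arrays (14.23 to 14.75). The titles of all HSU arrays carry the letter b and those of HSU_Sor arrays do not, and sorafenib cannot be told apart from whatever the letter stands for. Nothing in the labels says that same-group arrays came from separate cages or litters, and p-values measure only the spread between these samples.

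The promoters of these genes are shown because the chaperones are known targets of a DNA element, the ER stress response element, to which ATF6 and NF-Y bind. A window of 250 bases before to 50 bases after the annotated start was on hand for 8 of the 10 genes (RefSeq, build GRCr8). The window was searched on both strands for CCAAT followed, after 9 bases of any kind, by CCACG. The element was in 4 of the 8 windows, those of Hspa5, Hsp90b1, Calr and Xbp1, and in 22 of all 33469 windows of the table, or 0.0657%. The windows of these 4 genes are shown with that of Calu, which had the smallest p of the 10 genes and no match. Capitals mark the fixed letters of each match, and all 5 windows read in the direction of the gene.
Hspa5 (chr3:38452766-38453065, plus strand): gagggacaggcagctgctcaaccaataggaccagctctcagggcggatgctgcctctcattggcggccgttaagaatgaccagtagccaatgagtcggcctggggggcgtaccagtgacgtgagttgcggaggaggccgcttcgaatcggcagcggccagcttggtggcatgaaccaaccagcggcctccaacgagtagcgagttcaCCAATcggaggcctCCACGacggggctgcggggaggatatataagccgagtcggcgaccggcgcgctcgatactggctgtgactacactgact
Hsp90b1 (chr7:23012244-23012543, minus strand): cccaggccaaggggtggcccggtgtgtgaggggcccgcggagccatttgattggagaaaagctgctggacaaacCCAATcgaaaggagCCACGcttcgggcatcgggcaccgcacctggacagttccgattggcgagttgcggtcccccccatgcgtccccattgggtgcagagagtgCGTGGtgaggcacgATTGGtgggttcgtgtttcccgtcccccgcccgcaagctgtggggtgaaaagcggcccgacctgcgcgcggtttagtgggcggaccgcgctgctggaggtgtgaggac
Calr (chr19:40213117-40213416, plus strand): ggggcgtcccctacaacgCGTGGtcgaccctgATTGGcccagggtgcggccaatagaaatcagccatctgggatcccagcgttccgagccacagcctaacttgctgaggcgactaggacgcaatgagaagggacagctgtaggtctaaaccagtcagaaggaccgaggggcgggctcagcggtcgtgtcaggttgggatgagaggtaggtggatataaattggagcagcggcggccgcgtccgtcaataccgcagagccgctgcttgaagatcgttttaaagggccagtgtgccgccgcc
Xbp1 (chr14:84604373-84604672, plus strand): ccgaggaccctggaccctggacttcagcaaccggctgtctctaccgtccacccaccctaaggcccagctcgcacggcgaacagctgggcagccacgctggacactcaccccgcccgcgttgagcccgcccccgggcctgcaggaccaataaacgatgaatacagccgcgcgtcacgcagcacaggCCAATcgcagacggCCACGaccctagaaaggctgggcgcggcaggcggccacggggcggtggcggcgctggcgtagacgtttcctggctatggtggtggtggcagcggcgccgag
Calu (chr4:58914206-58914505, plus strand): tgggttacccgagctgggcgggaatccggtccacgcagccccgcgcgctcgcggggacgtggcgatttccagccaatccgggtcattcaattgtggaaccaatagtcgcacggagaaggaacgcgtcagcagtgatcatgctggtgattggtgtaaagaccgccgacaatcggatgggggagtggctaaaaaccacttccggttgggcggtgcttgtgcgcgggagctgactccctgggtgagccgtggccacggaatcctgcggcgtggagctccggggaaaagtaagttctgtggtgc

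The match in Hspa5 began 43 bases before the start, close to a run of TATATAA, and that in Xbp1 began 65 bases before the start. Hsp90b1 held 2 matches, from 176 and from 72 bases before the start, the second on the opposite strand. The match in Calr lay farthest out, from 232 bases before the start, also on the opposite strand. Pdia4, Calu, Atf4 and Ddit3 had no match in this window. Related elements were searched in the same way: ATTGG with CCACG after 1 free base (0.0508% of all windows), TGACG joined to TGG (0.595%), TGACG joined to TCA (1.83%), and TGATG with AA after 1 free base (3.97%), and 0 of the 8 windows held any of them. A match is a description of letters in the window and does not show binding.

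**Figure D1:**
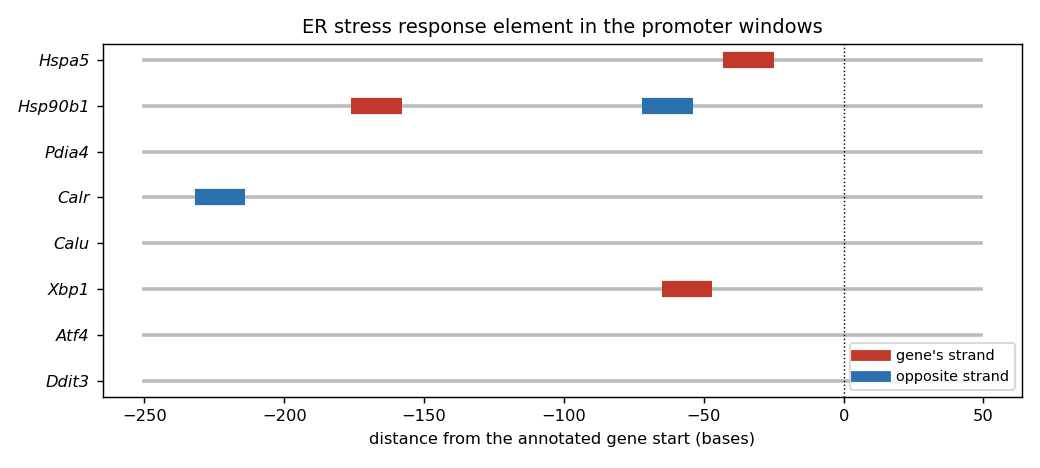
Position of each match to the ER stress response element in the promoter windows of 8 genes, with distance from the annotated start in bases on the horizontal axis. Red blocks are matches on the strand of the gene and blue blocks matches on the opposite strand. Hspa5, Hsp90b1, Calr and Xbp1 have matches, with 2 in Hsp90b1.

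The comparison asked whether the lungs of rats given sorafenib differed in these transcripts from lungs with hypoxia and SU5416 alone. All 10 genes had a lower mean in HSU_Sor lungs than in HSU lungs, with log2 differences between -0.55 and -0.09 and a median of -0.33. Over the 9299 genes tested, 53.5% had a negative difference and the median was -0.01. The transcripts of Calu, Hspa5, Pdia4, Pdia6, Hsp90b1 and Calr were lower at an unadjusted p below 0.05, and those of Pdia3, Xbp1, Atf4 and Ddit3 were not. Thus 6 of 10 genes were lower and 0 were higher by this rule. The shares over all genes tested were 4.18% lower (389 genes) and 2.69% higher (250 genes). As the 10 genes were chosen with earlier results of these data known, the contrast with these shares is a description only. With quantile normalization between arrays the genes tested were split more evenly, 327 lower and 338 higher, and 5 of the 10 genes were lower, Calr being the one lost. No gene passed the threshold after Benjamini-Hochberg adjustment over all 15521 probe sets tested (limma, adjusted p between 0.251 and 0.907 for these genes), and the share of probe sets called was 0.0%. At an unadjusted p below 0.05, 931 probe sets were below the threshold. In whole lung, fewer cells of a type and less RNA per cell cannot be told apart.

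**Figure D2:**
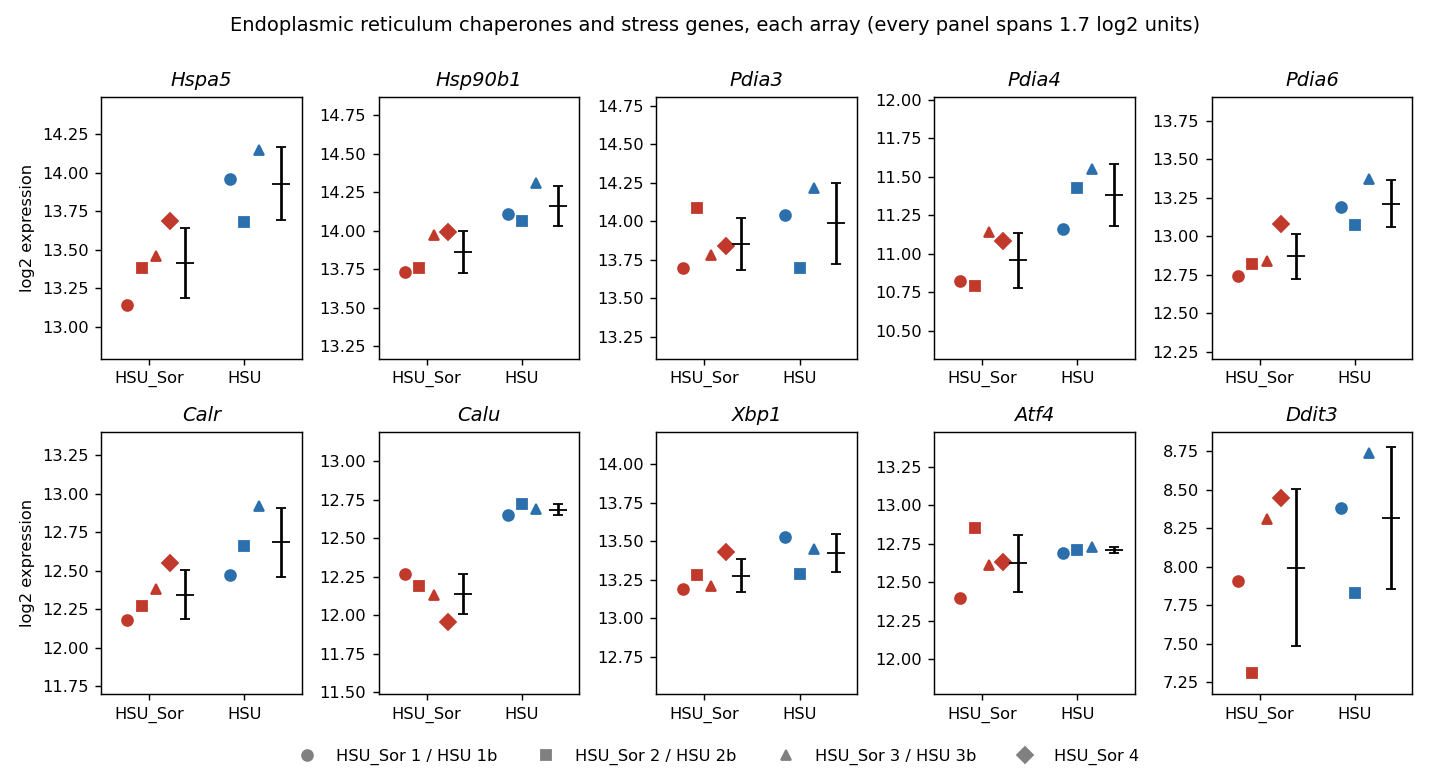
Log2 expression of the 10 genes on each array, with the 4 HSU_Sor arrays (red) left of the 3 HSU arrays (blue) in each panel. Points are arrays, marker shape gives the replicate number, black bars are mean ± SD, and every panel spans the same log2 range. The red points lie wholly below the blue points for Hsp90b1, Pdia4 and Calu.

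Hspa5 codes for BiP, the Hsp70 chaperone of the endoplasmic reticulum, which binds unfolded chains and holds the stress sensors inactive. It was at 13.14, 13.38, 13.46 and 13.69 on HSU_Sor arrays 1 to 4, against 13.96, 13.68 and 14.15 on HSU 1b, 2b and 3b. The groups met at a single point, where HSU_Sor 4 was 0.01 above HSU 2b. The means were 13.42 ± 0.23 (SD, n = 4) in HSU_Sor and 13.93 ± 0.23 (SD, n = 3) in HSU, a 1.43-fold lower level. The log2 difference was -0.51 ± 0.16 (SE), with a 95% interval of -0.90 to -0.13 (limma, adjusted p = 0.756).

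Hsp90b1 codes for the Hsp90 chaperone of the same compartment, which folds integrins and Toll-like receptors among other clients. Its level was 13.73, 13.76, 13.97 and 13.99 in HSU_Sor, against 14.11, 14.06 and 14.31 in HSU. The groups did not overlap, with a gap of 0.07 between the groups. The log2 difference was -0.30 ± 0.10 (SE), a 1.23-fold lower level (limma, adjusted p = 0.801).

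The disulfide isomerases form and rearrange disulfide bonds in folding proteins. Pdia4 was at 10.82, 10.79, 11.14 and 11.08 in HSU_Sor, against 11.16, 11.43 and 11.55 in HSU. These groups did not overlap, although HSU_Sor 3 came within 0.02 of HSU 1b. Pdia4 differed by -0.42 ± 0.13 (SE), 1.34-fold lower (limma, adjusted p = 0.756). Pdia6, which also tempers the signal of the stress sensors, was at 12.74, 12.82, 12.84 and 13.08 in HSU_Sor, against 13.19, 13.07 and 13.37 in HSU. Again only HSU_Sor 4 reached the HSU range, above HSU 2b by 0.01. Pdia6 differed by -0.34 ± 0.11 (SE), 1.27-fold lower (limma, adjusted p = 0.756).

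Pdia3 is the isomerase that works with the lectin chaperones on glycoproteins and in loading MHC class I molecules. It was at 13.70, 14.09, 13.78 and 13.84 in HSU_Sor, against 14.04, 13.70 and 14.22 in HSU, with each group spread over most of the range of the other. The log2 difference was -0.14 with a 95% interval of -0.49 to 0.22 (limma, adjusted p = 0.898), so a fall of the size seen for Pdia4 or Pdia6 lies inside the interval. The dimmer probe set of Pdia3 differed by -0.12, with an interval of -0.27 to 0.03. Whether Pdia3 differed from the other isomerases in its response was not tested.

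Calr, calreticulin, is a lectin chaperone that holds much of the calcium of the endoplasmic reticulum. It was at 12.18, 12.27, 12.38 and 12.55 in HSU_Sor, against 12.47, 12.66 and 12.92 in HSU. HSU_Sor 4 lay above HSU 1b, and the other 3 HSU_Sor arrays lay under the HSU range. The log2 difference was -0.34 ± 0.13 (SE), 1.26-fold lower, with a 95% interval of -0.66 to -0.02 (limma, adjusted p = 0.812).

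Calu, calumenin, is a calcium-binding protein of the secretory pathway and a member of the CREC family. Its level was 12.27, 12.19, 12.13 and 11.96 in HSU_Sor, against 12.65, 12.72 and 12.69 in HSU. The groups were separated by 0.38, the widest gap among the 10 genes, and the HSU arrays were close together (12.69 ± 0.03, SD, n = 3) while the HSU_Sor arrays were at 12.14 ± 0.13 (SD, n = 4). The log2 difference was -0.55 ± 0.08 (SE), 1.47-fold lower, with a 95% interval of -0.74 to -0.36 (limma, adjusted p = 0.251). Calu also ordered the arrays differently from the chaperones: HSU_Sor 4 was the lowest array for Calu and the highest HSU_Sor array for Hspa5, Hsp90b1, Pdia6 and Calr. Of all genes tested, 3.74% had all HSU_Sor values under the lowest HSU value, and of the 10 genes these were Calu, Hsp90b1 and Pdia4. An exact permutation test over the 35 splits of the arrays can give no two-sided p below 0.0571, so that no gene can pass 0.05 by it, and groups that do not overlap have this lowest p by construction. The exact p was 0.114 for Hspa5, Pdia6, Calr and Xbp1, 0.514 for Ddit3, and 0.571 for Pdia3 and Atf4.

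The 3 transcription factors had smaller differences or wider spreads. Xbp1 was at 13.19, 13.28, 13.21 and 13.43 in HSU_Sor, against 13.53, 13.29 and 13.45 in HSU, a log2 difference of -0.15 with a 95% interval of -0.36 to 0.06 (limma, adjusted p = 0.874). Atf4 was at 12.40, 12.85, 12.61 and 12.63 in HSU_Sor, against 12.69, 12.71 and 12.73 in HSU, and HSU_Sor 2 was the highest of all 7 arrays. The difference of Atf4 was -0.09, with an interval of -0.34 to 0.16 (limma, adjusted p = 0.907). Ddit3, the pro-apoptotic factor CHOP, was at 7.91, 7.31, 8.31 and 8.45 in HSU_Sor, against 8.38, 7.83 and 8.74 in HSU. It had the widest spread within groups of the 10 genes, and its difference of -0.32 had an interval from -1.12 to 0.48 (limma, adjusted p = 0.897). For none of these 3 did the groups separate, and the intervals of all 3 include a fall as large as that of Hsp90b1.

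**Figure D3:**
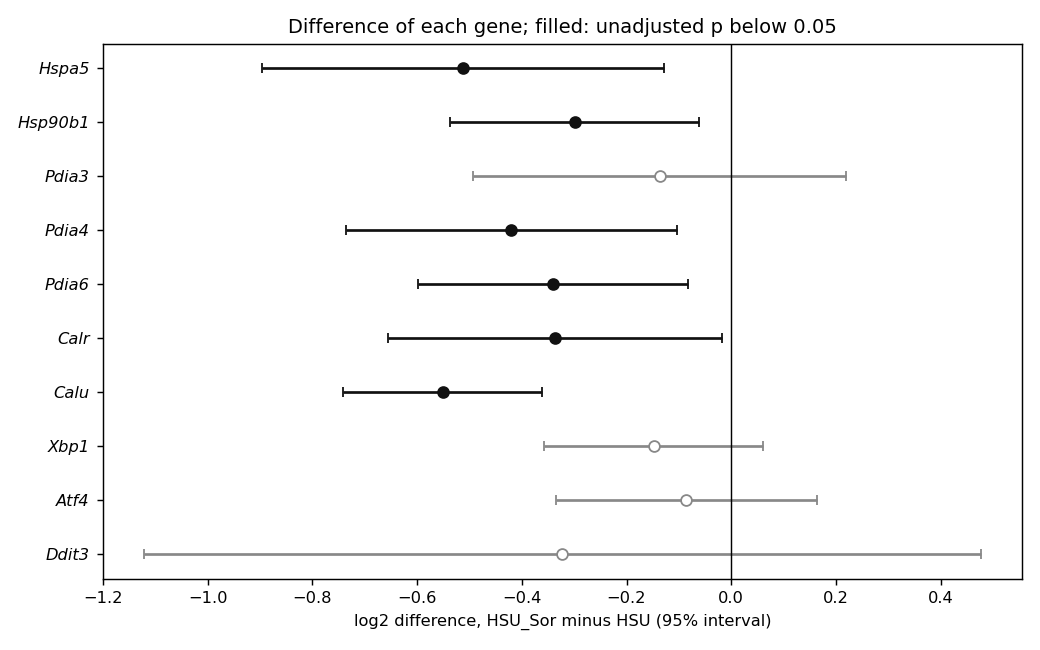
Log2 difference of each gene, HSU_Sor minus HSU, with 95% intervals from limma on 7 arrays. Filled points have an unadjusted p below 0.05. Calu has the shortest of the intervals that lie wholly below 0, and Ddit3 has the widest of all.

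Among the HSU arrays the genes did not stand level. HSU 3b was the highest of the 7 arrays for 7 of the 10 genes, and HSU_Sor 1 was the lowest for 6. The mean deviation of the 7 genes of chaperones, isomerases and calcium binders, Calu included, from their 7-array means was -0.28, -0.18, -0.12 and -0.05 on HSU_Sor 1 to 4. It was 0.15, 0.11 and 0.38 on HSU 1b, 2b and 3b. Thus HSU 3b was well above the other HSU arrays, and HSU_Sor 4 was the closest of its group to them. Without HSU replicate 3b, 1 gene (Calu, difference -0.55) was lower at an unadjusted p below 0.05 in place of 6, with 2.42% of all genes tested lower by the same rule, and all 10 differences were still negative with a median of -0.22. Without that array Hspa5 differed by -0.40, Pdia4 by -0.34, Pdia6 by -0.26, Hsp90b1 by -0.22 and Calr by -0.22. Single arrays also decided the call of 3 of these genes in other refits: Hsp90b1 was above the unadjusted threshold without HSU_Sor 1 or 2, Pdia4 without HSU 2b, and Calr without HSU 2b or without HSU_Sor 1, 2 or 3. Among the genes not called, Ddit3 differed by -0.09 without HSU_Sor 2, by -0.11 without HSU 3b and by -0.57 without HSU 2b. Pdia3 differed by -0.02 without HSU 3b and by -0.28 without HSU 2b. Atf4 differed by -0.01 without HSU_Sor 1 and by -0.16 without HSU_Sor 2. The sizes of these 3 differences thus rested on single arrays, while their sign was negative in each refit. Xbp1 differed by -0.09 without HSU 1b, and was below the unadjusted threshold without HSU 2b (-0.22) and without HSU_Sor 4 (-0.20). Without HSU 1b and 2b, the arrays with the MHC signal, 6 of the 10 genes were lower with a median of -0.53, where 6.24% of all genes tested were lower, HSU 3b then being the only HSU array. Without HSU_Sor 3 and 4, the arrays low in hemoglobin, 6 of the 10 genes were lower with a median of -0.44, where the share over all genes tested was 4.33%.

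**Figure D4:**
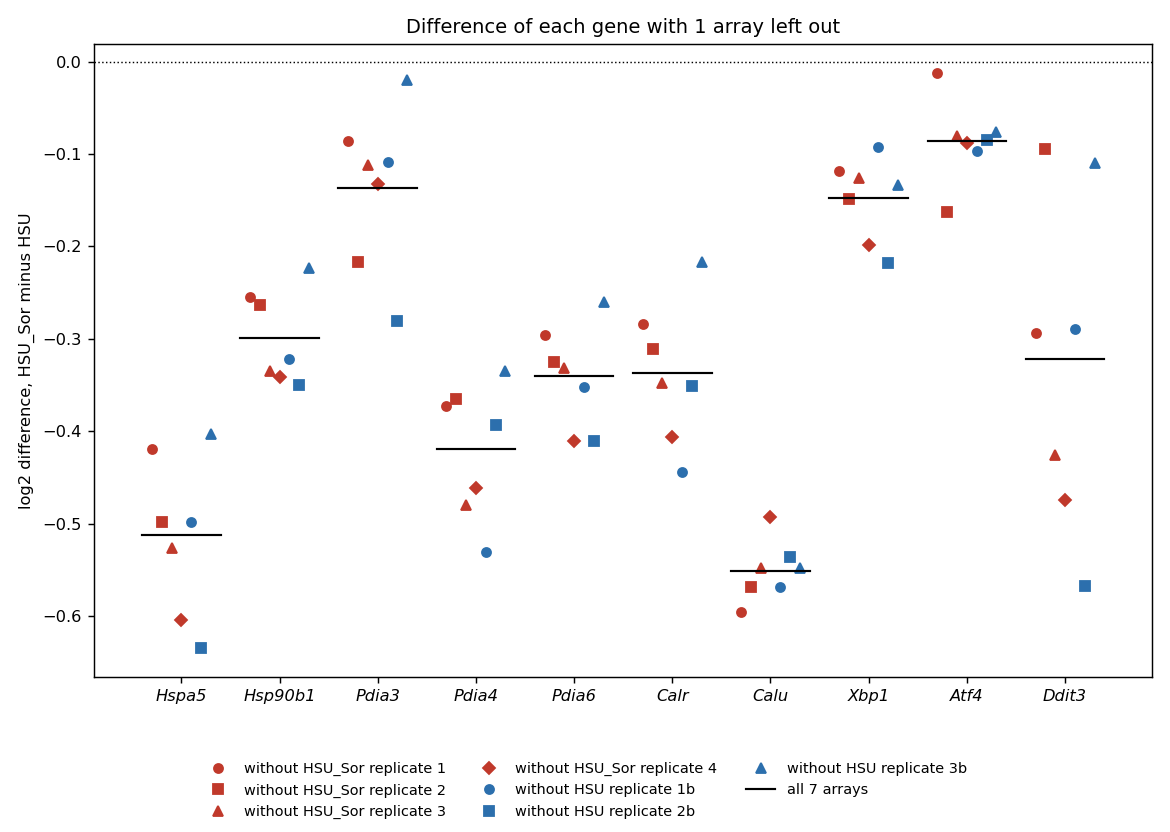
Log2 difference of each gene, HSU_Sor minus HSU, with 1 array left out at a time (red, an HSU_Sor array left out; blue, an HSU array left out) and with all 7 arrays (black line). All differences stay below 0. Those of Calu lie between -0.60 and -0.49, and the value without HSU 3b is the one nearest to 0 for Hspa5, Hsp90b1, Pdia3, Pdia4, Pdia6 and Calr.

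Further genes of the same machinery were taken from lists drawn up with earlier results of these data known, and are given as counts. Of 33 other chaperones, folding enzymes and retrieval receptors, 31 were above the filter on low values. Of these, 10 were lower and 0 higher at an unadjusted p below 0.05, 28 had a negative difference, and the median was -0.20. The lowest p belonged to Fkbp2, a prolyl isomerase, which was at 12.22, 12.13, 12.08 and 11.98 in HSU_Sor, against 12.48, 12.43 and 12.85 in HSU, a difference of -0.48 ± 0.12 (SE). Dnajb11, a co-chaperone of BiP, differed by -0.40 ± 0.11, the retrieval receptor Kdelr3 by -0.30 ± 0.09 and the membrane lectin calnexin (Canx) by -0.20 ± 0.06. For these 4 genes the highest HSU_Sor array was under the lowest HSU array. Serpinh1, the collagen chaperone and the brightest probe set of the list, was at 13.40, 13.60, 13.55 and 13.70 in HSU_Sor, against 13.86, 13.70 and 13.97 in HSU. No gene of the list passed after adjustment over all probe sets (limma, lowest adjusted p = 0.597). The count of lower genes was 3 when HSU 3b was left out, 5 when HSU 1b was, and 6 when HSU_Sor 1, 2 or 3 was. It was 8 without HSU_Sor 4, 12 without HSU 2b and 7 with quantile normalization. Of all genes tested, 2.42% were lower without HSU 3b and 4.97% without HSU 2b, against 4.18% in the main fit.

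The CREC relatives of Calu had a median difference of -0.22 over 4 genes, of which 1 was lower. This was Rcn1, reticulocalbin 1, at 12.99, 12.86, 12.79 and 12.58 in HSU_Sor, against 13.13, 13.24 and 13.06 in HSU. Like Calu, Rcn1 was lowest on HSU_Sor 4 and had no overlap between groups, with a difference of -0.34 ± 0.10 (SE). With quantile normalization 0 of the 4 were lower at that threshold. Rcn2 differed by -0.23, Rcn3 by -0.20 and Sdf4 by -0.04, and these did not pass the unadjusted threshold (limma, adjusted p of 0.756 or more in all 4).

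Genes of the PERK and ATF4 arm showed no common direction. Of 20 genes above the filter, 2 were lower and 1 was higher at an unadjusted p below 0.05, 9 had a negative difference, and the median was 0.01. Nupr1, a stress-induced chromatin protein, was at 10.39, 10.46, 10.36 and 10.32 in HSU_Sor, against 11.08, 10.67 and 10.86 in HSU, a difference of -0.49 ± 0.10 (SE). Ddit4, an inhibitor of mTOR complex 1 that also responds to hypoxia, differed by -0.54 ± 0.21. Asns, the asparagine synthetase and a target of ATF4, was the gene on the high side, at 9.10, 9.39, 8.71 and 8.67 in HSU_Sor, against 8.25, 7.68 and 8.72 in HSU. Its groups overlapped through HSU 3b, and the difference was 0.75 ± 0.29. Wars1, a tryptophan tRNA synthetase, differed by -0.35 and did not reach the unadjusted threshold, and the transcription factor Cebpb, the brightest of this list, differed by 0.02. The count of lower genes was 1 without HSU_Sor replicate 1, 2 or 4, and 3 without HSU 3b. The count of higher genes was 0 when HSU 1b, HSU 2b, HSU_Sor 1 or HSU_Sor 2 was left out.

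Of 22 genes of the IRE1 and ATF6 arms, translocon subunits and signal peptidases included, 19 had a negative difference. Ern1, which codes for IRE1, was not among them. Of these 22 genes, 2 were lower and 0 higher, with a median of -0.10. Both were subunits of the Sec61 channel, through which new chains enter the endoplasmic reticulum: Sec61a1 differed by -0.39 ± 0.13 (SE) and Sec61b by -0.31 ± 0.12. The next in order of p, the signal peptidase subunit Spcs3 (-0.23) and the receptor subunit Srpra (-0.15), did not pass. The count of lower genes was 0 when HSU 3b was left out, 1 when HSU 1b, HSU_Sor 1 or HSU_Sor 4 was, and 4 when HSU 2b was. Sec61g, the brightest of the list, differed by -0.13. Among 16 genes of ER-associated degradation 13 had a negative difference, 1 was lower and 0 higher, with a median of -0.06. This was Selenos, a selenoprotein of the retrotranslocation complex, at -0.16 ± 0.06, and the count was 0 without HSU replicate 1b or 3b or HSU_Sor replicate 1 or 3, and 2 without HSU_Sor replicate 2. The count was also 0 with quantile normalization, with median centring, with the 75th percentile filter, with the replicate block and without HSU_Sor 3 and 4 together. The ubiquitin ligase Syvn1 (-0.18), its partner Sel1l (-0.40), Derl2 (-0.29) and the ATPase Vcp (-0.14) did not pass. Neither list had a gene past the adjusted threshold (limma, adjusted p of 0.792 or more).

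Heat shock genes of the cytosol and mitochondria, which respond to a different sensor, had a median of -0.22 over 12 genes. All 12 differences were negative, but 0 passed the unadjusted threshold (limma, adjusted p of 0.865 or more). The values were -0.33 for Hspb8, -0.26 for the co-chaperone Bag3, -0.31 for Hspb1 and -0.62 for Hsph1. Hsp90ab1, the brightest of this list, differed by -0.10. The count of lower genes was 3 without HSU replicate 2b, 1 without HSU_Sor replicate 3, 5 without HSU_Sor replicate 4 and 6 without HSU_Sor 3 and 4 together.

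**Figure D5:**
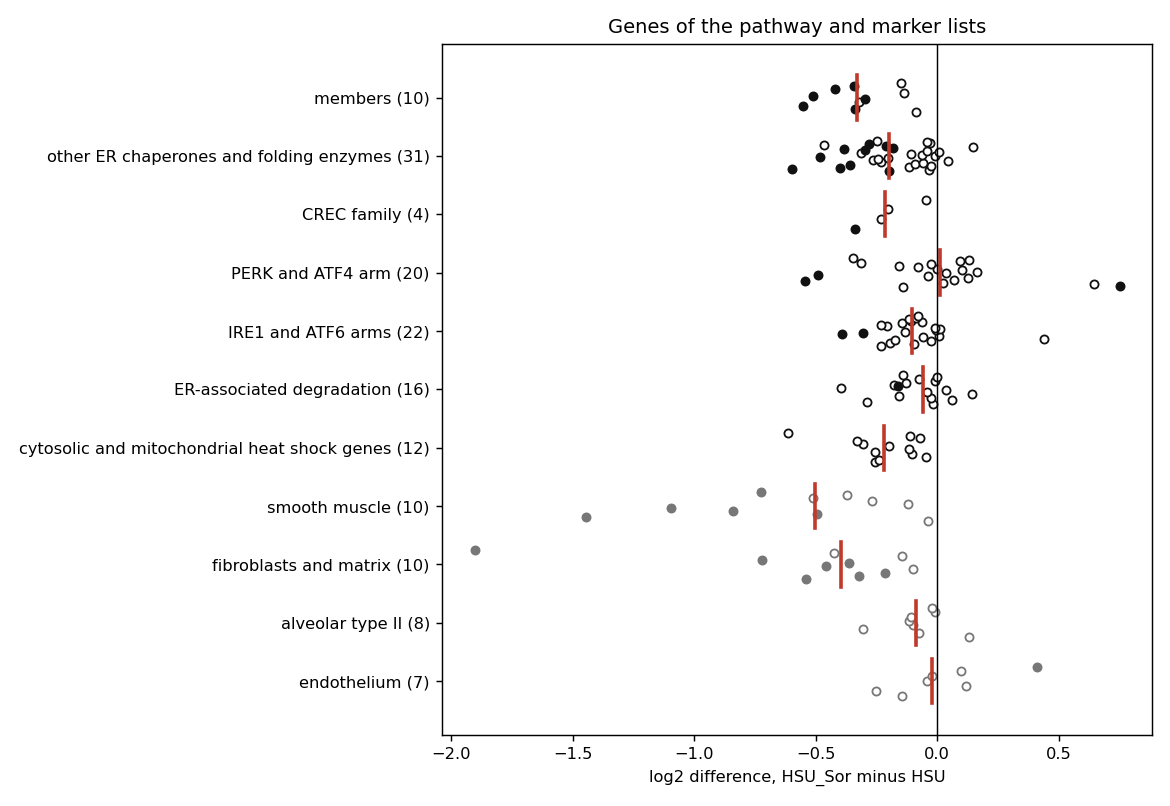
Log2 difference, HSU_Sor minus HSU, of each gene above the filter in the lists of the endoplasmic reticulum and stress pathways (black) and in 4 marker lists (grey), with the number of genes in brackets. Filled points have an unadjusted p below 0.05 and red bars are medians. The medians of the 10 genes and of the other chaperones lie at -0.33 and -0.20, and that of the PERK and ATF4 arm at 0.01. Those of the CREC family and of the heat shock genes both lie at -0.22. The IRE1 and ATF6 arms lie at -0.10 and ER-associated degradation at -0.06. Smooth muscle markers lie at -0.50, fibroblast and matrix at -0.39, alveolar type II at -0.09 and endothelium at -0.02.

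The ER stress response element occurred in the windows of 21 named or provisional genes, of which 14 were above the filter. Besides Hspa5, Hsp90b1, Calr and Xbp1 there were 10 such genes, with a median of -0.05. At an unadjusted p below 0.05, 4 of these 10 were lower and 0 higher, where 4.18% and 2.69% of all genes tested were. The 4 were Creld2 (-0.60 ± 0.21, SE), Dnajc3 (-0.36 ± 0.13), Canx (-0.20 ± 0.06) and the RNA-binding protein gene Hnrnpa3 (-0.20 ± 0.07). The first 3 of these code for endoplasmic reticulum proteins and are already counted as lower in the list of other chaperones. Of the remaining 6, Ero1b differed by -0.06, Ankmy2 by 0.06 and Ppm1l by 0.15. Pdia4 and Calu were lower without a match in their windows, and Xbp1 held a match and did not pass the unadjusted threshold.

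Genes with profiles most like those of Hspa5 and Calu over the 7 arrays were taken as the 5 with the highest Pearson correlation, as a description across arrays that also share the group difference. For Hspa5 these were Dhrs4 (0.993), Serpinh1 (0.987), Msl3 (0.982), Ilk (0.981) and Tmem208 (0.974). Among the 10 genes, Pdia6 (0.985) and Hsp90b1 (0.956) were closest to Hspa5, while Calu was at 0.607 and Atf4 at 0.458. For Calu the nearest genes were the lipoprotein receptor Scarb1 (0.977), tenascin-C (Tnc, 0.971), Fhod1 (0.957), the collagen chain Col6a2 (0.950) and Tgfb3 (0.950). No other of the 10 genes exceeded 0.681 with Calu, the highest being Pdia4.

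Markers of secretory and matrix-producing cells were read beside these values. Of 10 fibroblast and matrix markers, all above the filter, 7 were lower at an unadjusted p below 0.05 and 0 higher, with a median of -0.39, and their summed level on the log2 scale was between 16.28 and 16.49 in HSU_Sor and between 16.67 and 16.76 in HSU. Of 10 smooth muscle markers 5 were lower, with a median of -0.50 and a summed level of at most 15.51 in HSU_Sor and at least 15.83 in HSU. The 5 were Actg2 (-1.45), Des (-1.10), Cnn1 (-0.84), Tagln (-0.72) and Cald1 (-0.49). The other 5, Smtn (-0.51), Synpo2 (-0.37), Myh11 (-0.27), Lmod1 (-0.12) and Acta2 (-0.04), did not pass the unadjusted threshold. Both summed levels were lower on every HSU_Sor array than on every HSU array, and their part in the values of the 10 genes was not tested.

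Of 5 airway secretory markers 4 were lower, with a median of -0.99, while the brightest, Scgb1a1, differed by 0.005. The 4 were Scgb3a1, Bpifa1, Muc5b and Agr2, and the groups overlapped for all of these but Agr2. The widest was Bpifa1 at -3.68 ± 1.16 (SE), and Agr2, itself a disulfide isomerase of the endoplasmic reticulum, differed by -0.60 ± 0.23 with no overlap. Their summed level was between 15.94 and 16.09 in HSU_Sor and between 16.11 and 16.39 in HSU, and their part in the result was not tested. Of 8 alveolar type II markers 0 were lower or higher, with a median of -0.09 and summed levels of 17.41 to 17.53 in HSU_Sor and 17.45 to 17.60 in HSU. For plasma and B cells, 6 of the 8 markers on the array were below the filter, among them Mzb1, between 1.49 and 1.53. Of these 6, Pou2af1 was at 3.39, 3.95, 3.44 and 2.61 in HSU_Sor, against 2.31, 2.81 and 2.25 in HSU. The rest of the 6 differed by -0.02 (Blk) or less in size. The summed level of the markers above the filter was 12.37 to 12.42 in HSU_Sor and 12.15 to 12.35 in HSU. Most of it came from Sdc1, with means of 12.07 and 12.10. Jchain, which joins immunoglobulin chains in plasma cells, was at 10.20, 9.47, 10.43 and 9.91 in HSU_Sor, against 8.77, 8.65 and 9.69 in HSU. Its groups overlapped through HSU 3b and HSU_Sor 2, and its difference was 0.97 ± 0.33 (SE; limma, adjusted p = 0.812). Sdc1, the other marker above the filter, differed by -0.03, and the part of plasma and B cells in the result was not tested. Of 8 macrophage markers 3 were lower and 0 higher, with a median of -0.09. The 3 were C1qa (-1.70), C1qb (-2.69) and C1qc (-1.68). Adgre1 differed by -0.20, while Cd68 (0.39), Csf1r (0.17), Cd14 (0.07) and Mrc1 (0.01) had positive differences. The score of the 8 markers was -0.12, 0.04, -0.66 and -0.47 on HSU_Sor 1 to 4, against 0.62, -0.19 and 0.77 on HSU 1b, 2b and 3b. HSU 3b thus had the highest score here as well, although it was not the highest array for Cd68, Csf1r or Mrc1. Endothelial markers had a median of -0.02, or 0.04 with quantile normalization, with 1 of 7 higher and 0 lower. For cardiac muscle, red cells and mast cells, 3 of 8, 2 of 4 and 4 of 7 markers on the array were below the filter. Of the rest, 1 of 5, 0 of 2 and 2 of 3 were lower. The cardiac gene was Mb, at 2.63 to 2.64 in HSU_Sor, against 6.88, 5.59 and 2.57 on HSU 1b, 2b and 3b. Its mean passed the filter only through HSU 1b and 2b, so its call is a description only. The cardiac score, the mean deviation of the 5 cardiac markers above the filter from their 7-array means, was -0.45, -0.51, -0.15 and -1.31 on HSU_Sor 1 to 4. It was 2.16, 1.36 and -1.09 for the HSU arrays 1b, 2b and 3b. Its part in the result was not tested.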

How the data were processed

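The 7 arrays were Affymetrix rat expression arrays hybridised with biotin-labelled RNA, per the labels' protocols. The deposited values are log2 expression, 1 value for each probe set and array, which the authors had normalized. RMA and GCRMA are named in the submitters' processing notes, without saying which of them was applied. Values lay between 0.29 and 16.14, so that small differences near the lower end understate a change. The number of arrays limits the precision.

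The 57 control probe sets were left out. Names came from the platform annotation, in which 20826 probe sets had 1 gene symbol, 436 several and 9780 none. Gene identifiers matched 20758 of them to RefSeq (GRCr8), with 0 symbols changed. HSU_Sor minus HSU was fitted with limma (version 3.58.1, R 4.3.3), two-sided, with no covariate, on 15521 probe sets, those whose mean exceeded 3.64, the median over non-control probe sets. P-values were adjusted by Benjamini and Hochberg's method, and the threshold was 0.05. A gene stood for its brightest probe set. Named genes were the 10 genes, the 4 of each pathway list with the smallest p, the brightest of each list and the 5 most like Hspa5 and Calu. Other genes named, with the promoter element or as markers, were singled out with their values in view. The 10 genes and all lists were chosen with earlier results of these data known.

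The fit was repeated without the filter, with a cut at the 75th percentile, after quantile normalization or median centring, and with trend and robust settings, the mean of all probe sets of a gene, a replicate block, and arrays left out. The replicate block used only the replicate numbers present in both groups, so HSU_Sor 4 was not in it. Deviations from the group means correlated at 0.04, 0.15 and 0.10 between arrays sharing a replicate number, so the numbers were not taken to pair the samples. The fitting step was tested on simulated data with known changes. At the adjusted threshold it called 36.1% of the 1.4-fold changes, 67.8% of the 2-fold and 89.7% of the 4-fold changes. Of 696 calls over all simulated draws, 52 were false.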

Additional observations from a re-analysis of the deposited data

Results flagged for a closer look

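Among 35 probe sets examined (the 11 of the 10 genes and the 24 named first in the pathway lists), 2 had an HSU_Sor array far from the others of its group, and chance flags about 1 in 20. Spcs3, a subunit of the signal peptidase, was at 11.33 on HSU_Sor 1, against 11.55 to 11.58 on the other HSU_Sor arrays and 11.64 to 11.92 in HSU. Srpra, a subunit of the signal recognition particle receptor, was at 11.24 on HSU_Sor 4, against 11.41 to 11.44 on the other HSU_Sor arrays and 11.44 to 11.57 in HSU. None of the 11 probe sets of the 10 genes had such an array.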

How the results depend on the processing

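All 10 differences were negative under every alternative run (9 of 9 with the 75th percentile filter, which Ddit3 did not pass), and 0 of the 10 genes passed the adjusted threshold under any. A change of filter and the trend and robust settings leave the differences themselves unchanged, so no sign could turn in those runs. The mean of all probe sets could move Pdia3 alone among the 10 genes. The median over the 10 genes lay between -0.41 and -0.22 with 1 array left out, and was -0.53 without HSU 1b and 2b, a fit in which the single HSU array is assumed to vary like the HSU_Sor arrays. With 1 array left out, the count of these genes lower at an unadjusted p below 0.05 lay between 1 and 7. It was 1 without HSU replicate 3b (2.42% of all genes tested lower) and 7 without HSU_Sor replicate 4 (3.43%). With quantile normalization the count was 5 (3.52%). Of the 10 genes, Calu alone kept an unadjusted p below 0.05 in all 15 refits with limma, with adjusted p from 0.131 to 0.616. The number of probe sets called was 6 with the 75th percentile filter, 10 without HSU 1b and 2b, and between 0 and 6 with 1 array left out. At an unadjusted p below 0.05 there were 562 with the 75th percentile filter, where fewer were tested, and between 698 and 932 with 1 array left out. The fit with the replicate block left out HSU_Sor 4, whose number no HSU array shares. In this fit 7 of the 10 genes were lower, Ddit3 (-0.47) joining the 6. Of all genes tested, 3.46% were lower and 3.41% higher in it. The differences of the 10 genes equalled those without HSU_Sor 4 and without a block, where Ddit3 did not pass the unadjusted threshold. In the block fit and in the main fit 0 probe sets were called. HSU 1b and 3b correlated best with other numbers than their own. A larger offset before taking logs did not apply to log2 values. The causes of these shifts were not tested.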
